A study of Mus musculus with 60 samples.

Results

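Gene expression in the hippocampus of mammary tumor-bearing mice was compared between mid-dark and mid-light. The comparison took the hippocampus samples of tumor mice by the region, tumor status and time of collection in their labels, which gave 5 mice at each time and 10 samples of the 60 in the series, 56 of which had values. All mice were female Balb/C mice, 13 weeks old at collection, kept in a light cycle with lights on at ZT0. Tumor mice had received 67NR cells in DMEM in the 4th and 9th inguinal mammary glands, and vehicle mice DMEM only. The brains were collected 25 days after injection at ZT19 (mid-dark) or ZT7 (mid-light), after perfusion with phosphate-buffered saline. All tumors thus grew outside the brain and came from 1 line, 67NR, which was derived from 1 mammary tumor and does not form metastases. The panel, nanoString's nCounter set for mouse neuroinflammation, counts 770 transcripts of the dissected tissue with color-coded probes and no amplification, and the values below are log2 levels after quantile normalization.

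The hippocampus is built of densely packed neurons and the glia that serve them. Oligodendrocytes wrap axons in myelin, a membrane stack made of proteins and long-chain lipids. Mice are active in the dark, and many brain transcripts follow the daily cycle of clock, hormones, feeding and sleep. In bulk tissue, fewer cells of a type and less RNA per cell cannot be told apart.

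In tumor mice the largest group of genes that differed between the times was that of myelin. Opalin, an oligodendrocyte membrane glycoprotein, and Pllp, plasmolipin, a membrane protein of myelin, were 2.14-fold and 1.79-fold lower at mid-dark. Cnp, a myelin-associated phosphodiesterase, Mag, an adhesion protein of the innermost myelin membrane, and Fa2h, the hydroxylase that makes the fatty acids of myelin lipids, were lower by 1.52-fold to 1.57-fold. Cldn5, the tight junction protein of brain endothelium, Calr, the calcium-binding chaperone calreticulin of the endoplasmic reticulum, and Mertk, a receptor with which microglia and astrocytes take up debris, were higher at mid-dark. These 8 genes had an adjusted p under 0.05 in limma, 8 of the 769 genes tested (1.04%), 3 of them higher (0.39%) and 5 lower (0.65%). At an unadjusted p under 0.05 there were 95 genes (12.4%), 59 higher (7.67%) and 36 lower (4.68%). By another rule, an ordinary p of the same model under 0.05 and a difference more than 2 SD from the mean over genes (below -0.42 or above 0.42 on the log2 scale), 23 genes passed (2.99%), 8 higher (1.04%) and 15 lower (1.95%). The 4 hippocampus groups shared 1 estimate of the spread in this fit; when only the tumor mice were fitted, none of the 8 passed adjustment, and 80 genes had an unadjusted p under 0.05.

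The tissue carried the markers of hippocampus. Slc17a7, the vesicular glutamate transporter of forebrain neurons, was at 12.73 to 13.29 in the 10 hippocampus samples of tumor mice, against 4.85 to 8.94 in hypothalamus and 9.60 to 10.49 in brain stem. Tbr1, Nrgn and Rbfox3 were also higher in every hippocampus sample than in every sample of the other regions, and Slc17a6, the transporter of diencephalic and brain stem neurons, was lower, at 7.63 to 10.06 against 12.46 or more. Camk4 was higher in hippocampus except against the highest brain stem sample (10.65 to 10.92 against 8.99 to 11.26). Uty and Kdm5d, which female mice lack, lay between 1.87 and 4.88, which shows the level that background probes can take. Within a group the hippocampus samples correlated at r of 0.978 to 0.993 over the panel. Ttr, the transthyretin of choroid plexus, was low in 2 samples of tumor mice: it was at 5.36 in mid-dark mouse 7 and 6.82 in mid-light mouse 13, and at 12.36 to 14.58 in the other 8 tumor mice. Low Ttr was not limited to tumor mice. It was at 7.78 and 6.62 in vehicle mid-dark mice 12 and 28, and at 7.71 in vehicle mid-light mouse 6. Mouse 7 also had the largest deviation from the mean of its group. Without tumor mice 7 and 13, 2 genes passed adjustment, Opalin and Pllp. The vehicle mice of low Ttr stayed in that fit. The part of choroid plexus in the other differences was not tested.

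No difference between the times was detected in what the labels record of the samples. RNA concentration was 1312 ± 485 ng/ul at mid-dark and 1323 ± 652 ng/ul at mid-light (SD, n = 5 mice each). Total tumor mass was 4.20 ± 0.719 g and 3.39 ± 0.860 g (SD, n = 5 mice each), with ranges that overlapped. None of 6 such measures, which included RNA purity and the body and spleen mass, had an adjusted p under 0.834 in exact two-sided permutation tests, and the smallest unadjusted p was 0.143 for tumor mass. The smallest p that 5 against 5 mice allow is 0.0079.

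**Figure D1:**
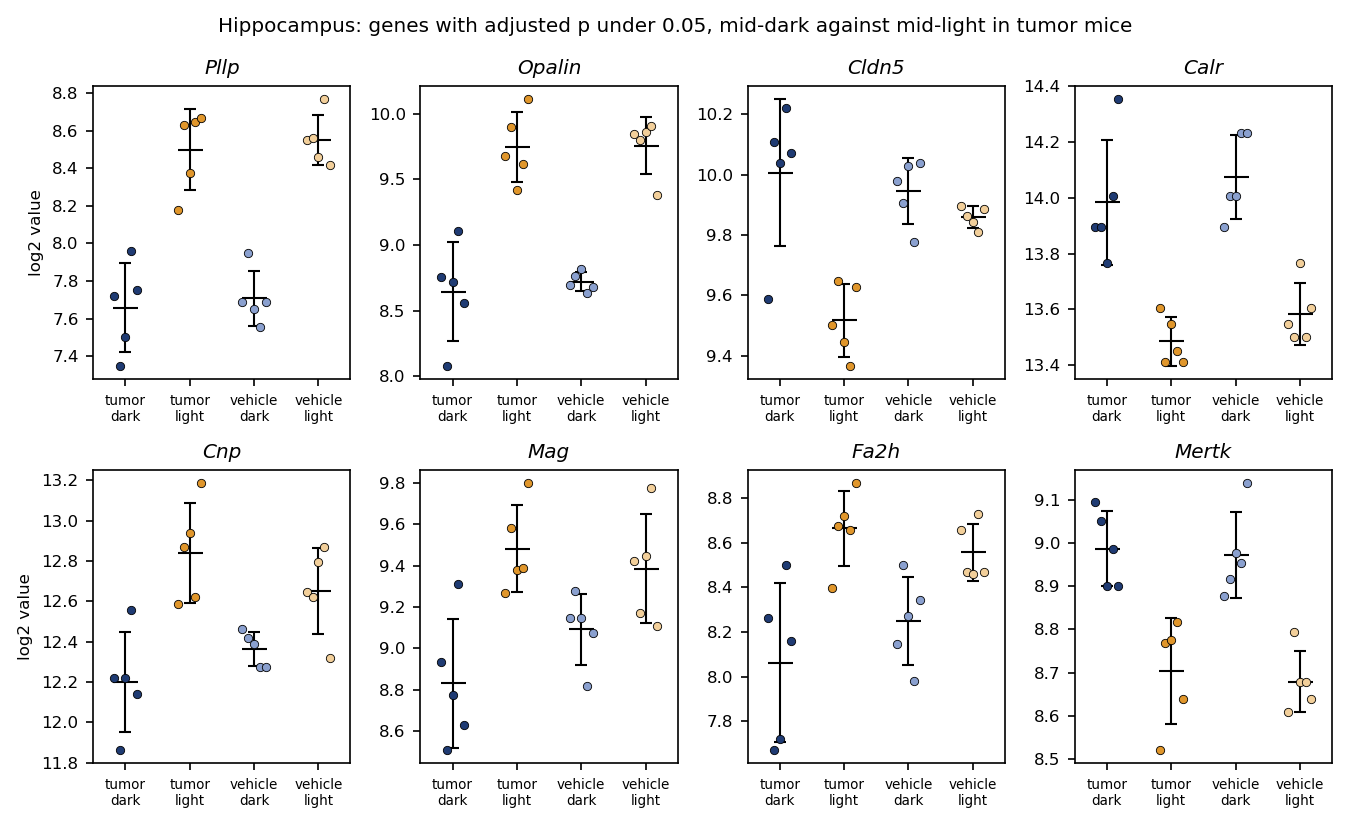
Log2 value of the 8 genes with an adjusted p under 0.05 in each hippocampus sample of tumor and vehicle mice at mid-dark and mid-light (points, 5 mice per group), with the mean and SD (bars). In tumor mice the mid-dark points of Opalin, Pllp and Cnp all lie below the mid-light points, those of Calr and Mertk all lie above them, and Cldn5, Mag and Fa2h each have mice that overlap.

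For the myelin genes, the values of single mice show the spread. Opalin was at 8.76, 8.08, 8.72, 9.11 and 8.56 in mid-dark mice 3, 7, 11, 19 and 23, and at 9.68, 9.90, 9.42, 9.62 and 10.11 in mid-light mice 1, 5, 9, 13 and 29. Every mid-dark mouse was below every mid-light mouse, with mouse 7 lowest and mouse 29 highest. The difference was -1.10 ± 0.16 (log2, SE, limma, adjusted p = 0.000501). Pllp was at 7.72, 7.35, 7.50, 7.96 and 7.75 in the mid-dark mice and at 8.18, 8.63, 8.38, 8.65 and 8.67 in the mid-light mice, in the same order of mice. Again the groups did not overlap, and mouse 7 was lowest. The difference was -0.84 ± 0.12 (log2, SE, limma, adjusted p = 0.000501). Cnp was at 12.22, 11.86, 12.22, 12.56 and 12.14 at mid-dark and at 12.59, 12.87, 12.94, 12.62 and 13.19 at mid-light. The groups were separate by a narrow margin, between mid-dark mouse 19 and mid-light mouse 1. The difference was -0.64 ± 0.13 (log2, SE, limma, adjusted p = 0.0141), and the call was lost without mouse 7 or mouse 29. Groups that did not overlap were found for 15 of 769 genes (1.95%), 8 with every mid-dark mouse higher (1.04%) and 7 with every mid-dark mouse lower (0.91%).

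Mag and Fa2h overlapped in mouse 19 alone. Mag was at 8.94, 8.51, 8.78, 9.31 and 8.63 at mid-dark and at 9.27, 9.58, 9.38, 9.39 and 9.80 at mid-light. Mid-dark mouse 19 was above mid-light mouse 1, and the other 4 mid-dark mice were below all mid-light mice. The difference was -0.65 ± 0.15 (log2, SE, limma, adjusted p = 0.043). Fa2h was at 8.26, 7.67, 7.72, 8.50 and 8.16 at mid-dark and at 8.40, 8.68, 8.72, 8.66 and 8.87 at mid-light. Mouse 19 was again the only mid-dark mouse above a mid-light mouse. The difference was -0.60 ± 0.14 (log2, SE, limma, adjusted p = 0.043), and of the 10 fits without 1 mouse, 7 lost the call of Fa2h and 8 that of Mag. Mog, the outermost myelin glycoprotein, was at 9.64 ± 0.42 at mid-dark and 10.33 ± 0.31 at mid-light (SD, n = 5 mice each). Its difference was -0.68 ± 0.18 (log2, SE) and missed the threshold (limma, adjusted p = 0.0908).

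The list of myelin genes had 23 members on the panel, and all 23 had a lower mean at mid-dark, against 352 of the 769 genes tested (45.8%). Of the 23, 20 had an unadjusted p under 0.05, against 4.68% of all genes in that direction, and 5 an adjusted one, against 0.65%. The median difference of the list was -0.40, against 0.01 for all genes tested. Among proteins of compact myelin, Mobp was at -0.51 ± 0.19 and Mal at -0.37 ± 0.14 (log2, SE). Bcas1, a marker of oligodendrocytes that are forming myelin, was at -0.50 ± 0.15 and Enpp6, a choline phosphodiesterase of new oligodendrocytes, at -0.51 ± 0.18 (log2, SE). Gpr62, Ninj2 and Gal3st1 were the 3 members with an unadjusted p of 0.05 or more, at -0.22 ± 0.11, -0.32 ± 0.19 and -0.15 ± 0.12 (log2, SE). Of 4 regulators of the oligodendrocyte lineage on the panel, all had a lower mean at mid-dark. Only Myrf, the transcription factor that drives myelin genes, had an unadjusted p under 0.05 (-0.25 ± 0.10, log2, SE), and it missed adjustment in limma (adjusted p = 0.327).

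The mean of the 23 genes was 9.38, 9.02, 9.29, 9.69 and 9.32 in mid-dark mice 3, 7, 11, 19 and 23, and 9.64, 9.85, 9.77, 9.69 and 10.06 in mid-light mice 1, 5, 9, 13 and 29. Mid-dark mouse 19 lay above mid-light mouse 1, and the other 4 mid-dark mice lay below all mid-light mice. Mouse 7 was lowest and mouse 29 highest. Without mouse 7, 14 of the 23 still had an unadjusted p under 0.05 and the median difference was -0.32. Without mouse 29 there were 15, with a median of -0.36. Without the 2 tumor mice of low Ttr there were also 14, with a median of -0.36. In a fit of the 10 tumor mice alone, all 23 were lower, 19 had an unadjusted p under 0.05 and the median was -0.40. With the total tumor mass as a covariate in these 10 mice, 22 of the 23 were lower, 5 had an unadjusted p under 0.05 and the median was -0.27.

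Opalin and Pllp differed more than the rest of the myelin genes. Relative to the mean of the other 21 myelin genes in the same sample, Opalin was at -1.06 to -0.68 at mid-dark and at -0.43 to -0.0042 at mid-light in tumor mice (log2). The groups did not overlap. In vehicle mice it was at -0.98 to -0.83 and at -0.17 to 0.06, again without overlap. Pllp was at -1.90 to -1.68 at mid-dark and at -1.52 to -1.10 at mid-light in tumor mice, and at -2.07 to -1.80 and -1.43 to -1.13 in vehicle mice. In all of these, the mid-dark samples were below the mid-light samples. The 2 genes and these ratios were chosen after the values were seen, and the ratios carry no test. A fit with the mean of the other 21 as a covariate was also chosen after the values were seen. In it, the differences of Opalin and Pllp in tumor mice were -0.59 ± 0.11 and -0.51 ± 0.11 (log2, SE), with adjusted p of 0.0545 and 0.0776 in limma.

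**Figure D2:**
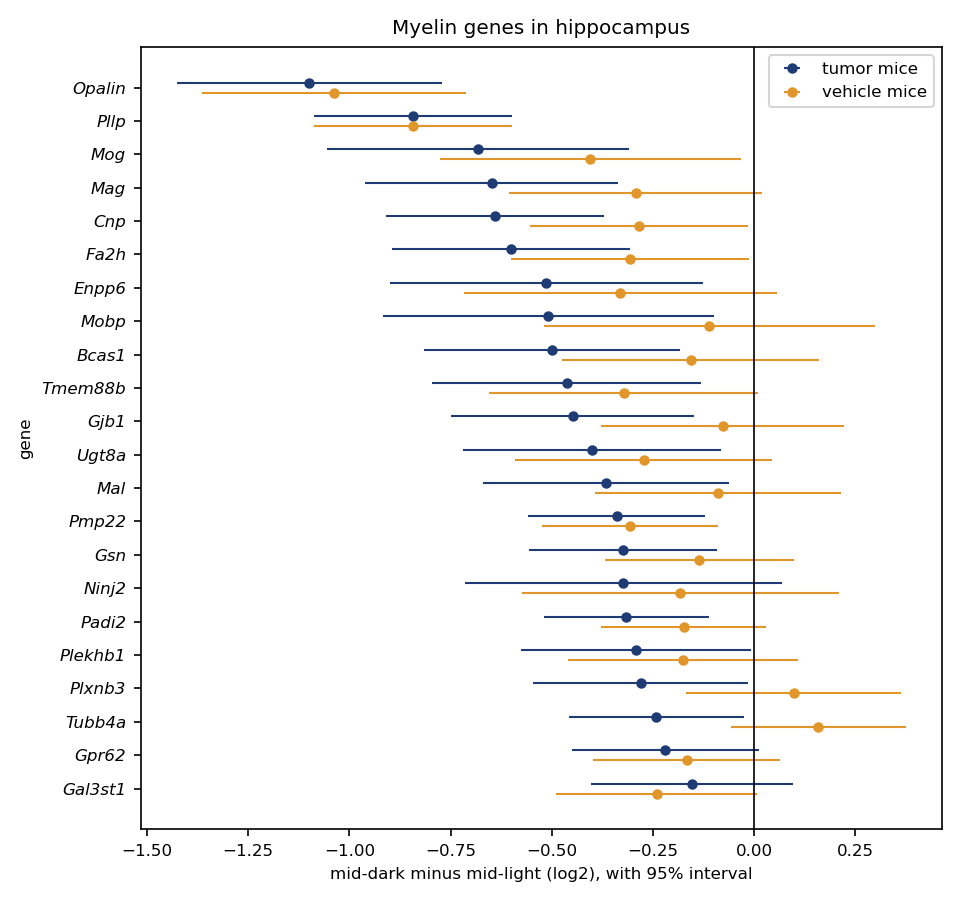
Difference between mid-dark and mid-light (log2, x axis) of 22 of the 23 myelin genes (y axis) in hippocampus of tumor mice and vehicle mice, with 95% intervals of the fit over 4 groups of 5 mice. All 22 tumor values shown are below 0, from -1.10 for Opalin to -0.15 for Gal3st1, and 20 of the 22 vehicle values are.

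The promoters of Opalin and Pllp are shown because, of the 8 called genes, these had the largest differences and the smallest p. Each is the 250 bases before the RefSeq start, in GRCm38.p6, 5′ to 3′ on the strand of the gene. Opalin lies at chr19:41077114-41077363 and Pllp at chr8:94696243-94696492, both on the minus strand.
Opalin: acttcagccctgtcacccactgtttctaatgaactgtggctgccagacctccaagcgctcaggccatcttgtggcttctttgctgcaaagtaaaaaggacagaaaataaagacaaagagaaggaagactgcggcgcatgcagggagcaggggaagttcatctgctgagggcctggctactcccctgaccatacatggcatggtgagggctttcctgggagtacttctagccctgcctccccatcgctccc
Pllp: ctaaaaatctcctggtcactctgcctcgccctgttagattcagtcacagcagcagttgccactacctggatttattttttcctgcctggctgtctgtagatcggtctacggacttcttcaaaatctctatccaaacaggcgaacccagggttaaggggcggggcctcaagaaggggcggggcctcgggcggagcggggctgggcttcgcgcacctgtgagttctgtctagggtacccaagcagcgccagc
Both strands were searched for CACGTG (an E-box that clock factors bind), TGACGTCA (a CRE), TTATGNAA (a D-box form) and GAANNTTC (a unit of the heat shock element), and neither window held any of these letters. Over all 32851 promoters of the table these motifs stood in 6.02%, 1.55%, 3.07% and 6.69%. Of the 20 genes with the smallest p, 10 in each direction, 18 matched a promoter. Besides Calr and Hspb1 below, the only matches were a TGACGTCA in Tmc7 and a GAANNTTC in 1 of the promoters of Tmcc3.

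Among the genes that were higher at mid-dark, Calr had the highest level. It was at 13.90, 13.90, 13.77, 14.01 and 14.35 in mid-dark mice 3, 7, 11, 19 and 23, and at 13.61, 13.41, 13.55, 13.45 and 13.41 in mid-light mice 1, 5, 9, 13 and 29. All mid-dark mice were above all mid-light mice. The difference was 0.50 ± 0.10 (log2, SE, limma, adjusted p = 0.0115), which is 1.41-fold. Hspb1, a small heat shock protein, was at 7.68, 7.71, 7.97, 8.02 and 7.60 at mid-dark and at 7.28, 7.22, 7.75, 7.09 and 6.91 at mid-light. Mid-light mouse 9 overlapped with the mid-dark mice, and the difference of 0.54 ± 0.16 (log2, SE) missed the threshold (limma, adjusted p = 0.134). The other 2 of the 4 chaperones on the panel were Bag3 at 0.035 ± 0.093 and Bag4 at 0.020 ± 0.063 (log2, SE), and the list had a median of 0.27.

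The promoters of these genes are shown with the matches in capitals, CACGTG for Calr and GAANNTTC for Hspb1. They lie at chr8:84846932-84847181 on the minus strand and chr5:135887669-135887918 on the plus strand of GRCm38.p6, with the sequences from RefSeq.
Calr: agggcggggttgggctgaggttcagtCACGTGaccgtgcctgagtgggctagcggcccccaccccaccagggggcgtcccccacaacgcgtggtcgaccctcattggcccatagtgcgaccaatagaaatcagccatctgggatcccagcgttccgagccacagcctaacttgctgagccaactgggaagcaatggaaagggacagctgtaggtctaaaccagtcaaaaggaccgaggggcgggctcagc
Hspb1: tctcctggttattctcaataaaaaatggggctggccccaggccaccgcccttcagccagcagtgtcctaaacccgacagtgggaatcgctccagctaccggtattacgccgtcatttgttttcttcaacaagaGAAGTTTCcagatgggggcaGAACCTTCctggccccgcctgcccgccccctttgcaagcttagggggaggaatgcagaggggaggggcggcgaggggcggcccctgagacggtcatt
The match in Calr begins 224 bases before the start, and those in Hspb1 begin 117 and 97 bases before it. A match describes the letters only, and no binding was measured.

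Cldn5 was the single endothelial gene that differed. It was at 9.59, 10.11, 10.04, 10.22 and 10.07 at mid-dark and at 9.50, 9.65, 9.44, 9.37 and 9.63 at mid-light. Mid-dark mouse 3 lay among the mid-light mice, and the other 4 mid-dark mice were above all of them. The difference was 0.49 ± 0.09 (log2, SE, limma, adjusted p = 0.0115), which is 1.40-fold, and in the fit over 3 regions with the mouse as replicate block its adjusted p was 0.0567. Of the 14 endothelial genes on the panel, 1 had an unadjusted p under 0.05, against 12.4% of all genes, and the median of the list was -0.04. In vehicle mice Cldn5 was at 9.78 to 10.04 at mid-dark and 9.81 to 9.90 at mid-light, so the mid-light tumor mice were below all 10 vehicle mice.

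Mertk was at 9.09, 9.05, 8.90, 8.99 and 8.90 at mid-dark and at 8.52, 8.77, 8.78, 8.82 and 8.64 at mid-light, with no overlap. The difference was 0.28 ± 0.07 (log2, SE, limma, adjusted p = 0.043), the smallest of the 8 called. Of the 10 fits without 1 mouse 8 lost the call, and the block fit over 3 regions gave an adjusted p of 0.063. The microglial lists are read against the 12.4% of all genes with an unadjusted p under 0.05, or the 7.67% that were higher at mid-dark. Of 13 homeostatic microglia genes, 1 had such a p and it was higher at mid-dark (Sall1, a transcription factor of microglia, 0.16). Of 18 phagocytic microglia genes, 3 did, Mertk, the lysosomal protein Cd68 (0.24) and the lipopolysaccharide co-receptor Cd14 (0.27), all higher. Both lists had medians near that of all genes, at 0.00 and 0.06. Complement genes had none of 9.

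Other genes with the smallest p missed adjustment in limma. Irf3, a transcription factor of the interferon response, was at 8.26, 8.53, 8.39, 8.33 and 8.36 at mid-dark and at 8.15, 8.08, 8.25, 8.02 and 8.23 at mid-light, without overlap (0.23 ± 0.06, log2, SE, adjusted p = 0.0776). Tet1, an enzyme that oxidizes methylated DNA, was at 8.87 to 9.02 at mid-dark and 8.69 to 8.79 at mid-light, also without overlap (0.21 ± 0.06, adjusted p = 0.123). Hdac4, a histone deacetylase, was higher in all mid-dark mice but mouse 11 than in every mid-light mouse (0.30 ± 0.08, adjusted p = 0.105). These 2 belong to a list of 56 chromatin modifier genes, of which 8 had an unadjusted p under 0.05, all higher, against 7.67% of all genes in that direction. The list median was 0.03, and in vehicle mice 13 of the 56 were higher by that p. Tmc7 and Igsf6 did not overlap between the times (0.31 ± 0.09 and 0.68 ± 0.21, log2, SE), but Igsf6 lay at 4.00 to 5.40, near the level of Uty and Kdm5d. Lrrc3 had a difference of 0.49 ± 0.14. Among those lower at mid-dark, Slc44a1, a choline transporter, was at -0.22 ± 0.06 and Tmcc3 at -0.23 ± 0.06, both without overlap, and Pmp22, a peripheral myelin protein, was at -0.34 ± 0.10.

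**Figure D3:**
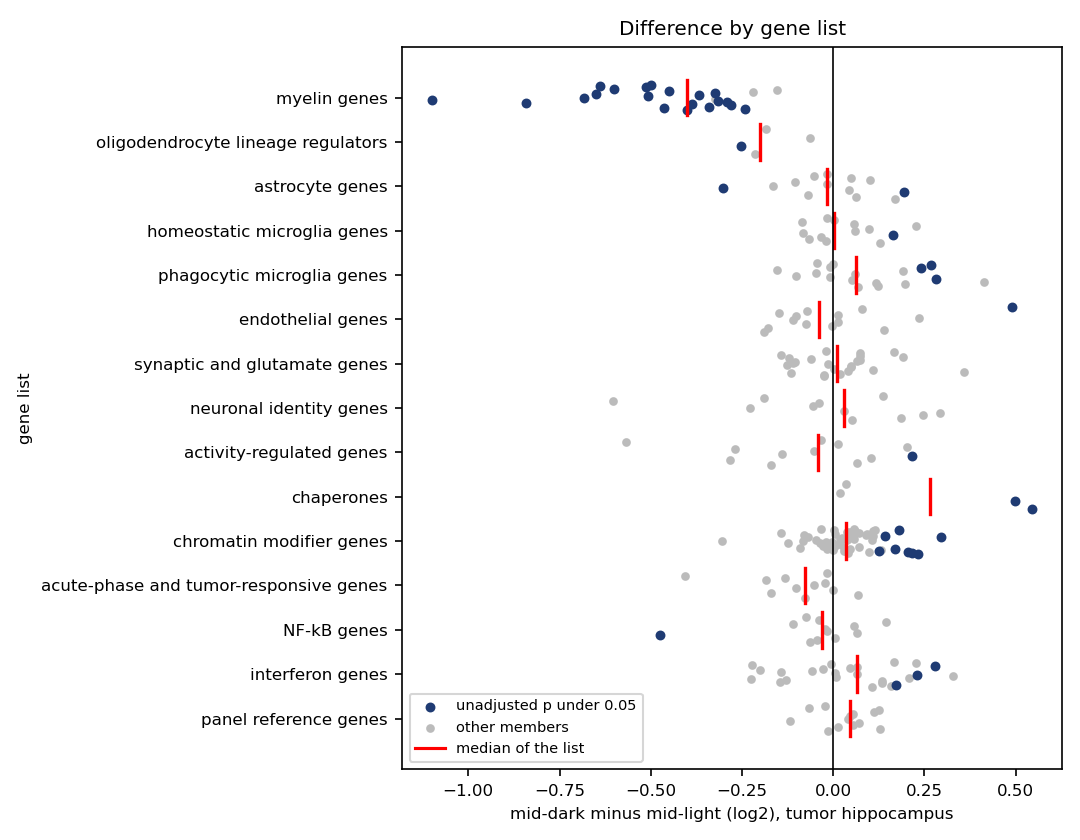
Difference between mid-dark and mid-light in tumor hippocampus (log2, x axis) of the members of 15 gene lists (y axis), each point a gene, with the median of the list (red bar). Myelin genes have a median of -0.40, oligodendrocyte lineage regulators -0.20 and chaperones 0.27, and the other lists lie between -0.08 and 0.06.

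None of 24 synaptic and glutamate genes and none of 11 neuronal identity genes had an unadjusted p under 0.05, against 12.4% of all genes, with medians of 0.01 and 0.03. Of 12 activity-regulated genes 1 had an unadjusted p under 0.05, against 12.4% of all genes. It was Homer1, a postsynaptic scaffold, which was higher (0.21 ± 0.08, log2, SE). The list median was -0.04, and 7 of the 12 had a lower mean at mid-dark, against 45.8% of all genes. Of 14 circadian clock genes looked for, the panel held Timeless alone, which is also in the list of DNA repair and replication genes. Timeless was at 6.81 ± 0.18 at mid-dark and 6.55 ± 0.16 at mid-light (SD, n = 5 mice each), which missed adjustment (0.26 ± 0.11, log2, SE, limma, adjusted p = 0.327). Of the 5 glucocorticoid-induced genes on the panel, 4 had an unadjusted p under 0.05, against 12.4% of all genes, and the list median was 0.27. The 4 went in both directions, and the remaining member was near 0, at 0.07. Glucocorticoid levels were not part of these data. Mertk, Cdkn1a and Slc10a6 were higher, and Nfkbia, the inhibitor of NF-kB, was lower, at 7.66 ± 0.26 against 8.14 ± 0.16 (SD, n = 5 mice each). Slc10a6 lay near the level of Uty and Kdm5d. Of 13 astrocyte genes, 2 had an unadjusted p under 0.05, near the 12.4% of all genes, Nwd1 higher (0.19) and Itga7 lower (-0.30).

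No member of the immune lists in this paragraph had an adjusted p under 0.05, against 1.04% of all genes. None of 11 acute-phase and tumor-responsive genes and none of 5 IL-6 type cytokine genes had an unadjusted p under 0.05, against 12.4% of all genes, although 10 of the 11 had a lower mean at mid-dark, against 45.8% of all genes (list median -0.08). Of 25 interferon genes 3 did, all higher, Irf3 and Gbp2 among them, against 7.67% of all genes in that direction, with a list median of 0.06. Of 10 Toll-like receptor genes 2 did, both higher, Cd14 among them, against the same 7.67%, with a list median of 0.03. Of 33 blood leukocyte markers 3 did, also higher and against the same 7.67%, but the mean level of that list was 3.76 to 4.05 in tumor mice, within the range of Uty and Kdm5d. By the same p, 1 of 27 TNF superfamily genes was higher and 1 lower. Of 12 NF-kB genes 1 was lower, and of 10 interleukin-1 genes 1 was higher. The share of all genes was 7.67% higher and 4.68% lower. None of the 13 panel reference genes had an unadjusted p under 0.05 in tumor mice, against 12.4% of all genes. In vehicle mice 1 was higher and 1 lower by that p, and the lower 1 passed adjustment. When the mean of the 13 reference genes was subtracted, 21 genes were higher and 36 lower in tumor mice at an unadjusted p under 0.05. The share of higher genes thus went from 62.1% to 36.8%, and Opalin and Pllp were the 2 that passed adjustment. Of the 13, Asb10 lay within the range of Uty and Kdm5d, at 3.35 at mid-dark and 3.42 at mid-light. Without it, an alternative chosen after the data were seen, 27 genes were higher and 47 lower (36.5% higher), and 5 of the 8 calls were kept.

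Vehicle mice showed which differences were present without a tumor. In their hippocampus 18 genes passed adjustment (2.34%), and 4 were shared with tumor mice, Opalin, Pllp, Calr and Mertk, which is 50% of the tumor list and 22.2% of the vehicle list. The shared 4 had the same direction. The differences in vehicle mice were -1.04 ± 0.16 for Opalin, -0.84 ± 0.12 for Pllp, 0.49 ± 0.10 for Calr and 0.29 ± 0.07 for Mertk (log2, SE). The difference between the differences, tumor minus vehicle, was -0.06 ± 0.22, 0.00 ± 0.16, 0.01 ± 0.14 and -0.01 ± 0.09 in the same order. The other 4 were smaller in vehicle mice, with Cldn5 at 0.09 ± 0.09, Cnp at -0.29 ± 0.13, Mag at -0.29 ± 0.15 and Fa2h at -0.31 ± 0.14 (log2, SE). These 4 were picked because they passed adjustment in tumor mice and not in vehicle mice, which by itself favors smaller vehicle values. None of the 4 passed adjustment in the interaction test below. For Cldn5 tumor minus vehicle was 0.40 ± 0.13 (log2, SE) and missed adjustment (limma, adjusted p = 0.509).

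The test of that difference, the interaction of tumor and phase, found no gene at an adjusted p under 0.05 in limma (0%) and 47 at an unadjusted one (6.11%). The smallest p belonged to Cd68 (0.53 ± 0.14), Fcrlb (1.33 ± 0.38) and Tbc1d4 (-0.42 ± 0.13; log2, SE), all with adjusted p = 0.509. Cd68 was at 7.80 to 8.47 at mid-dark and 7.76 to 8.06 at mid-light in tumor mice, and at 7.70 to 8.10 and 8.03 to 8.21 in vehicle mice. It was higher at mid-dark in tumor mice (0.24 ± 0.10) and lower in vehicle mice (-0.29 ± 0.10, log2, SE), by unadjusted p only. Fcrlb lay near the level of Uty and Kdm5d. Without mid-dark tumor mouse 11 the interaction of Cd68 was 0.63 (limma, adjusted p = 0.0457), and without mid-dark tumor mouse 3 that of Cldn5 was 0.51 (limma, adjusted p = 0.0337). These were the only interaction calls in 20 fits that each left out 1 mouse. In both, the mouse left out had the lowest mid-dark tumor value of the gene, so its removal raises the difference. Of the 23 myelin genes, 21 had a lower mean at mid-dark in vehicle mice. Of these, 6 had an unadjusted p under 0.05, against 7.41% of all genes in that direction. The list median was -0.18 in vehicle mice, against 0.00 for all genes tested there and -0.40 in tumor mice. Tubb4a and Plxnb3 were the 2 with an unadjusted interaction p under 0.05, against 6.11% of all genes, and none passed adjustment. The median interaction of the 23 was -0.19. The same median over all genes was not computed, and the 23 genes come from the same mice. Whether the list as a whole differed more in tumor mice was not tested.

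**Figure D4:**
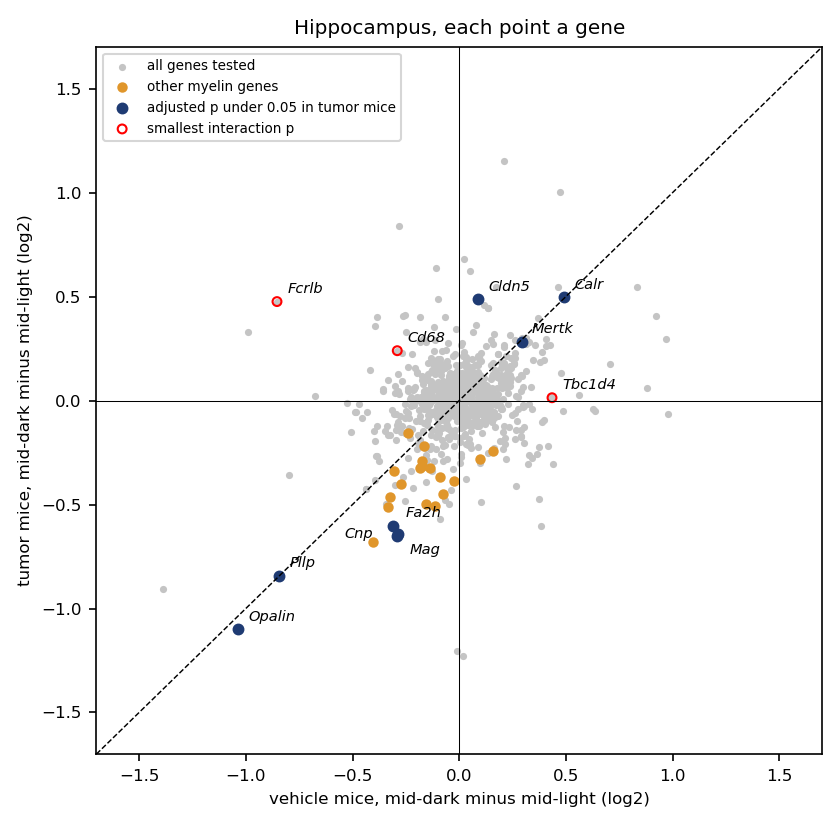
Difference between mid-dark and mid-light (log2) in hippocampus of vehicle mice (x axis) against tumor mice (y axis), each point 1 of the 769 genes tested, with the line of equal values dashed. Opalin, Pllp, Calr and Mertk lie on or close to the line, Cldn5 lies above it at 0.49 against 0.09, and Fcrlb, Cd68 and Tbc1d4 are the genes with the smallest interaction p.

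Brain stem and hypothalamus of these tumor mice were read in 1 fit over the 3 regions. There Opalin was -1.07 ± 0.14 and -1.16 ± 0.14, Pllp -0.69 ± 0.12 and -0.92 ± 0.12, and Cldn5 0.59 ± 0.13 and 0.59 ± 0.13 (log2, SE, hypothalamus and brain stem). The 95% interval of the difference between hippocampus and hypothalamus was -0.43 to 0.37 for Opalin, -0.50 to 0.20 for Pllp and -0.49 to 0.29 for Cldn5. Calr was 0.13 ± 0.08 in hypothalamus and 0.38 ± 0.08 in brain stem. Mertk was -0.07 ± 0.08 and -0.04 ± 0.08, where hippocampus had 0.28. Cnp was -0.21 ± 0.11 and -0.23 ± 0.11. No gene differed between hippocampus and hypothalamus, or between hippocampus and brain stem, at an adjusted p under 0.05 in limma (0% each), and 38 (4.94%) and 30 (3.9%) did at an unadjusted one. By that unadjusted p, Mertk and Cnp differed from both regions, and Calr and Fa2h from hypothalamus. These genes were picked for their difference in the same hippocampus samples, which tilts the comparison toward a difference between regions. It therefore cannot show that their difference is particular to hippocampus. The median of the myelin list was -0.16 in hypothalamus and -0.19 in brain stem.

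**Figure D5:**
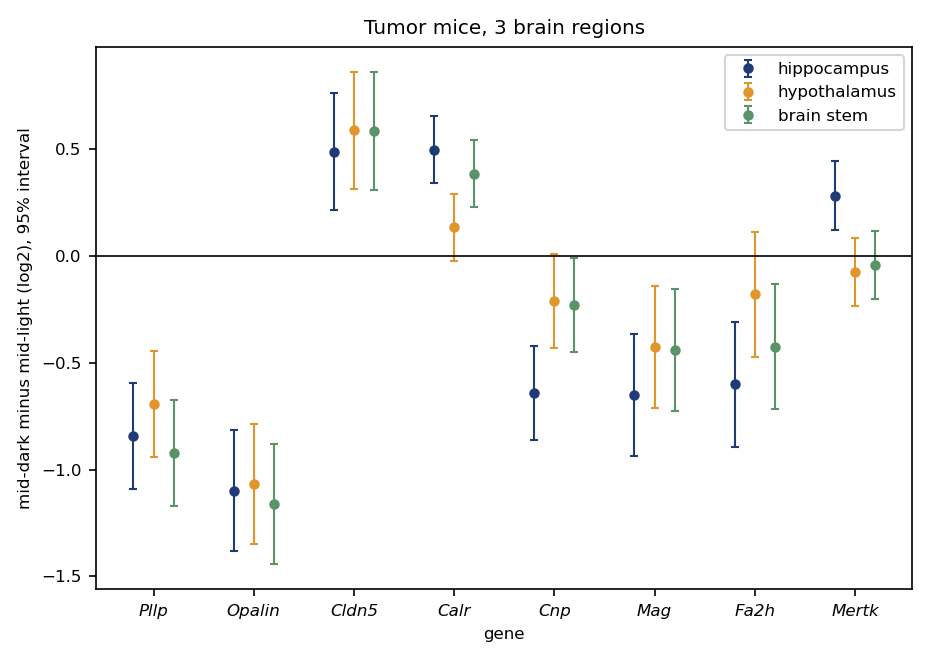
Difference between mid-dark and mid-light (log2, y axis) of the 8 genes (x axis) in the 3 regions of the same 10 tumor mice, with 95% intervals of the fit over 3 regions. Opalin, Pllp and Cldn5 have like values in all 3 regions, and Mertk is at 0.28 in hippocampus against -0.07 and -0.04.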

How the data were processed

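RNA from hippocampus of 20 mice was assayed with the nCounter panel. The authors normalized the counts in nSolver 3 and then by quantiles in Partek GS 6.6, and the deposited values are log2 expression values. Quantile normalization gives every sample the same set of values, so a shift of the whole panel is not visible and highly expressed genes share few values. No counts entered these fits, depth is therefore unknown, and precision rests on the 5 mice per group. The 10 samples of tumor mice were grouped by their labels, and mice are the replicates.

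Differences are mid-dark minus mid-light, from a linear model with 4 group means over the 20 hippocampus samples in R 4.3.3 with limma 3.58.1, adjusted by Benjamini-Hochberg over the 769 genes tested (1 gene had 1 value throughout). The model was tested on simulated data in which each gene was drawn independently from a normal distribution. That test does not cover genes that vary together from mouse to mouse. Regions of the tumor mice were compared in a fit over 30 samples. Samples with the same number come from the same mouse, and the deviations of hippocampus from its group mean correlated with those of hypothalamus at r of -0.06 to 0.28 and of brain stem at -0.18 to 0.47, so the mouse as replicate block is the alternative. Exact tests, promoter searches and plots used Python 3.11.15 with scipy 1.17.1 and matplotlib 3.10.9.

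Named are all genes with an adjusted p under 0.05, the 10 smallest p in each direction, the 3 smallest interaction p, up to 3 members of each list described and the genes a figure shows. The comparison, the gene lists and this rule were chosen with earlier results of these data known. Some single genes are not reported here and stay in the counts. Lists are described by counts and medians, without a test. Alternatives were the prior, a mean log2 filter of 5, other centring, quantile normalization within hippocampus, RNA concentration or tumor mass as covariate, only the 2 groups, the methods' test, the replicate block and leaving out each mouse.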

Additional observations from a re-analysis of the deposited data

Results flagged for a closer look

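In the 23 genes looked at in the tumor mice, which gave 46 groups of 5 mice, 3 groups had a mouse whose distance from the nearest of the others was large for the range of the group. Chance alone gives this in about 1 of 20 groups. Cldn5 was at 9.59 in mid-dark mouse 3, and at 10.04 to 10.22 in the other mid-dark mice. Slc44a1 was at 10.86 in mid-dark mouse 7, and at 11.08 to 11.16 in the others. Bcas1 was at 12.01 in mid-light mouse 29, and at 11.50 to 11.63 in the others. Mouse 7 is the mid-dark mouse with low Ttr and the lowest mean of the myelin genes, and mouse 29 is the mid-light mouse with the highest. The part of these in the outlying values was not tested.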

How the results depend on the processing

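The 8 genes at an adjusted p under 0.05 became 2 with the mean of the 13 reference genes subtracted, 5 with RNA concentration as a covariate, and 0 with only the 2 groups, by the methods' test or with tumor mass as a covariate. In 3 alternatives chosen after the data were seen they became 5 with 12 reference genes (without Asb10), 2 without the 2 tumor mice of low Ttr and 0 with the mean of the other 21 myelin genes as a covariate. Leaving out each mouse gave 4 to 10 genes, fewest without mid-dark mouse 7 or mid-light mouse 29, and 70 to 102 at an unadjusted p (95 with all mice), fewest without mouse 7. The interaction had 0 or 1 gene, as did hippocampus against hypothalamus (1 without mouse 19), and hippocampus against brain stem had 0. With the 13 reference genes subtracted, 57 genes had an unadjusted p under 0.05. With the mouse as replicate block 8 genes passed adjustment, Cldn5 and Mertk not among them, and the block changed no count between regions. The sign of Tbc1d4, at 0.01 in tumor mice, reversed to -0.019 with 13 and -0.027 with 12 reference genes subtracted and to -0.035 with tumor mass, and ranged from -0.035 to 0.071 in the fits without 1 mouse. With the myelin covariate Bcas1 reversed to 0.0023 and Myrf to 0.047. Bcas1, Cnp, Mag and Fa2h are themselves in that covariate, so their values there are set toward 0 by construction. The cause of the other changes was not tested.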
